A study of Drosophila melanogaster with 3 samples.

Results

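The vacuolar proton pump genes of Drosophila melanogaster were taken as the protein-coding genes of the dm6 annotation whose symbols start with Vha followed by a digit or a capital letter. There were 33 of them among 13981 protein-coding genes. They encode the subunits of the V-ATPase and a pair of accessory proteins. Promoter signal at these genes was read from peak lists of chromatin immunoprecipitation of Broad, the zinc finger protein of the gene br, carrying eGFP. The larvae were from a transgenic line that stably carries br-RE with GFP at its C terminus, males and females pooled, collected whole as wandering larvae of the third instar, and their chromatin was precipitated with an antibody against GFP. All 3 biological replicates (numbered 2, 3 and 4) belonged to this single group, so nothing was compared between conditions. Their sonicated chromatin ran from 200 to 800 bp. The larvae were whole, so a region seen in few cells and a weak region seen in all cells cannot be told apart.

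The V-ATPase is a rotary pump that uses ATP to move protons into lysosomes, endosomes and secretory vesicles, and across the plasma membrane of some epithelia. Its V1 sector lies in the cytosol and splits ATP in a ring of A and B subunits, while D and F form the central axle and E, G, C and H hold the sectors together or regulate them. The Vo sector lies in the membrane and carries protons through subunit a and a ring of c and c″ proteolipids, with d and e beside them. Flies hold several gene copies of many subunits, and several of those copies are known for expression in testis. Broad is induced by the moulting hormone ecdysone and acts as metamorphosis begins.

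Sequences are shown for the strongest peak at a proton pump gene (Vha100-2), for a peak between 2 divergent genes (Vha16-5), and for promoters that hold a searched word (Vha55 and VhaSFD). They are RefSeq sequence of dm6, written 5′ to 3′ on the strand of the named gene. The Vha100-2 window is chr3R:18397140-18397340 and the Vha16-5 window is chr2L:10737186-10737386, both on the minus strand and centred on the summit. The Vha55 promoter is chr3R:12627780-12628079 and the VhaSFD promoter is chr2L:16727777-16728076, both on the minus strand, from 250 bp before to 50 bp after the 5′ end. Capitals mark matches to the searched words, and a line without capitals holds none of them.
Vha100-2 summit: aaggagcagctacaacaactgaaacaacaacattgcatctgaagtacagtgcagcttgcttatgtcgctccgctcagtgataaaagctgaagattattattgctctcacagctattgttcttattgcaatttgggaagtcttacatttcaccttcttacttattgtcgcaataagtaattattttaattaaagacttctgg
Vha16-5 summit: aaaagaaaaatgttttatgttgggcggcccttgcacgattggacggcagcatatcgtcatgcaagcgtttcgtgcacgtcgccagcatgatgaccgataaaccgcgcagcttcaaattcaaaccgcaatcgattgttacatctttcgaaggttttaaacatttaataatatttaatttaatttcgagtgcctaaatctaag
Vha55 promoter: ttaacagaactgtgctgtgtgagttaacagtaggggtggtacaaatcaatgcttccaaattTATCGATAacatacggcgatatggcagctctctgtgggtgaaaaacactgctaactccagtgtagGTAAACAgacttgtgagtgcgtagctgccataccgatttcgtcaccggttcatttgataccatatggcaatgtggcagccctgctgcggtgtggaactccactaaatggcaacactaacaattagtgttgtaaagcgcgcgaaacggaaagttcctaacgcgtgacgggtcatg
VhaSFD promoter: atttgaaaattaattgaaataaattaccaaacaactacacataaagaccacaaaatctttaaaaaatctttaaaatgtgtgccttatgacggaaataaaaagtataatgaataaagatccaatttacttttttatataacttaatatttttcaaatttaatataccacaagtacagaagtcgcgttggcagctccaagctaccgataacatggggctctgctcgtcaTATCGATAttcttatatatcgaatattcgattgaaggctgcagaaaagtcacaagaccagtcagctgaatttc

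The 6 words were searched on both strands. TATCGATA is the word known as DRE and GGTCACAC is a word of the factor M1BP. TCACGTGA is an E box form of the CLEAR motif, known from mammalian TFEB. For Broad itself the word CTATTT was searched. The word AAACTA was searched as another of its words. The longest of its words, GTAAACA, also resembles the forkhead core. Counted from the first base printed, TATCGATA started at position 62 of the Vha55 promoter and at 228 of the VhaSFD promoter, and GTAAACA started at position 127 of the Vha55 promoter. Over the 33 promoters of 300 bp, TATCGATA was in 6.06%, against 9.36% of all promoters, and GTAAACA was in 9.09% against 9.19%. CTATTT was in 21.2% against 27.0%, AAACTA in 27.3% against 27.3%, and GGTCACAC in 12.1% against 7.69%. Among the 6 optimal summits at proton pump genes, GTAAACA lay within 100 bp of those at Vha36-1 and Vha55, and none of the other words lay within 100 bp of any. Of all nuclear optimal summits 6.37% held GTAAACA within 100 bp, 20.4% CTATTT, 20.8% AAACTA, 3.31% TATCGATA, 1.51% GGTCACAC and 0.159% TCACGTGA. With 6 summits, counts of 0 or 2 say little beside these shares. A match describes the letters and is no evidence of a site.

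Of the 33 genes, 6 had a summit of the optimal list within 1 kb of a transcription start site (TSS): Vha100-2, Vha14-1, Vha16-1, Vha16-5, Vha36-1 and Vha55. The optimal list holds the 2533 peaks that the authors kept by an irreproducible discovery rate threshold, and it equals the 2533 strongest regions of the list called on the replicates pooled. The share was 18.2% (exact 95% interval 6.98 to 35.5), against 13.6% of all protein-coding genes, a value inside that interval. With 33 genes the interval is wide, and the share is close to the background. The interval counts the genes as independent, though some are tandem neighbours, and serves only to describe the share. In the 2533 strongest regions of each replicate, 5 genes in replicate 2, 5 in replicate 3 and 7 in replicate 4 had a summit within 1 kb (15.2%, 15.2% and 21.2%), against 11.4%, 16.1% and 12.6% of all protein-coding genes. The means were 17.2% ± 3.5 for the proton pump genes and 13.4% ± 2.43 for all protein-coding genes (SD, n = 3), a difference about as large as the spread between replicates. In replicate 3 the share of the proton pump genes lay below that of all genes, and in the other replicates above it.

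**Figure D1:**
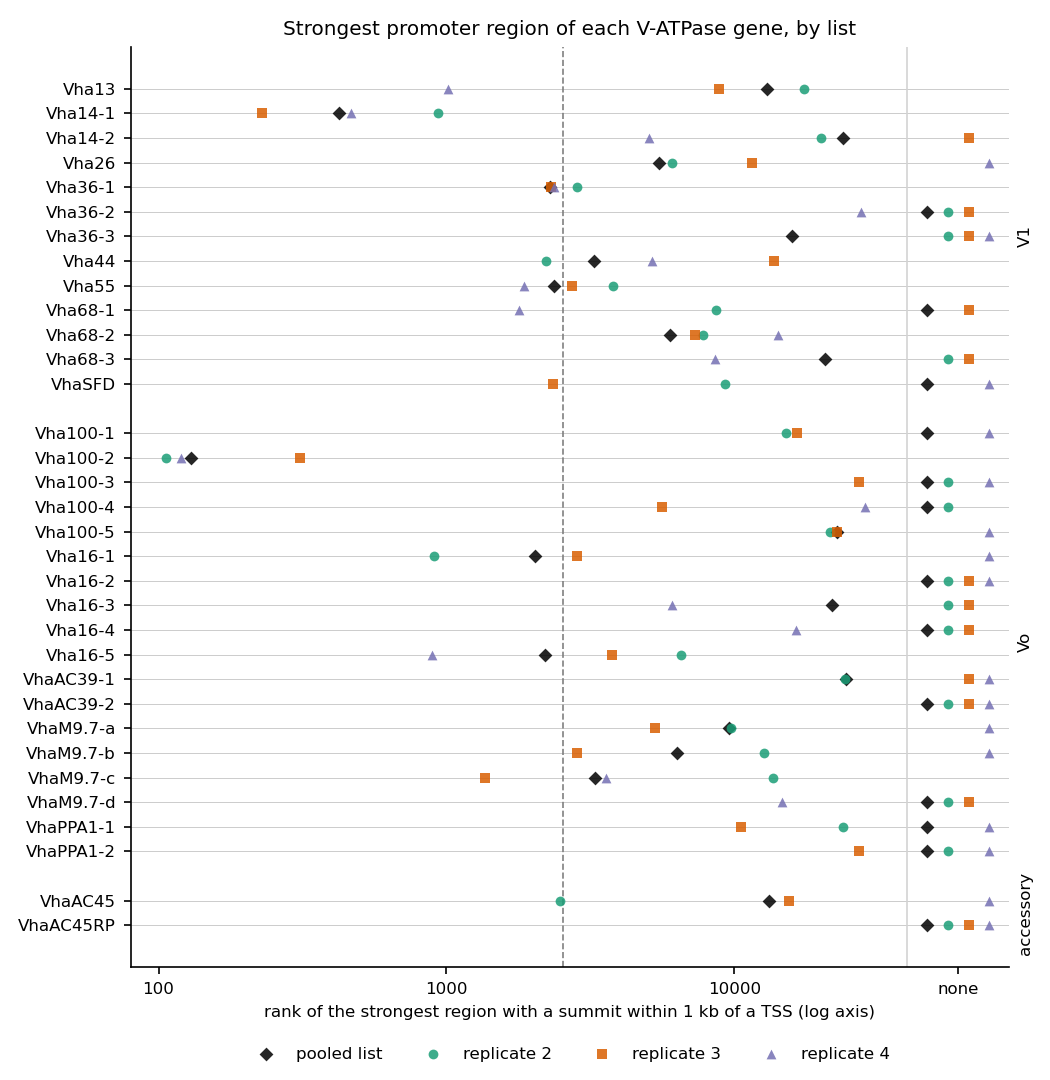
Rank of the strongest region within 1 kb of a TSS for each of the 33 genes (log axis, strongest at the left), in the pooled list (diamonds) and in replicates 2 (circles), 3 (squares) and 4 (triangles); the dashed line is rank 2533 and the right column holds genes with no region in a list. Vha100-2 and Vha14-1 are left of the line in the pooled list and in all 3 replicates.

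The 6 peaks lay in separate stretches of the optimal list. Vha100-2 and Vha14-1 were in its strongest 500 peaks (6.06% of the 33 genes, against 3.05% of all genes), and no further member came in before rank 2030. At rank 2000 the share was still 6.06%, against 10.9%. The other 4 genes then followed between ranks 2030 and 2369, so that they lie near the foot of the list, whose weakest peak had a signal of 88.3. With the strongest 5000 pooled regions 24.2% of the members had a summit, against 23.5% of all genes, and with the strongest 10000 it was 36.4% against 36.4%. The signal is the authors' own value for a region and was used only to rank or describe regions within a list.

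**Figure D2:**
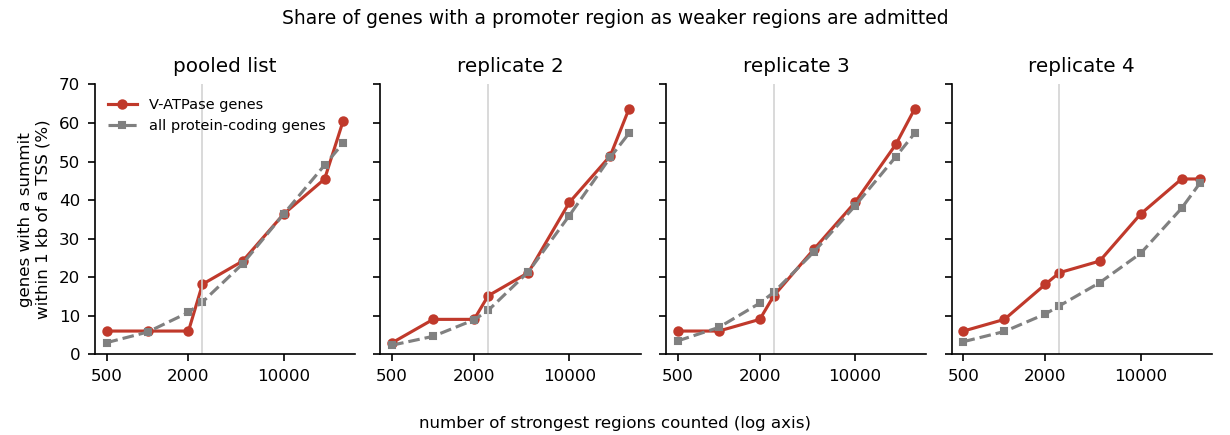
Percent of the 33 proton pump genes (red circles) and of all 13981 protein-coding genes (grey squares) with a summit within 1 kb of a TSS, against the number of strongest regions counted (log axis), in the pooled list and in replicates 2, 3 and 4; the grey line is 2533 regions. In the pooled list the members run at 6.06% up to 2000 regions and reach 18.2% at 2533.

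Vha100-2 encodes an a subunit of Vo, the subunit that forms the proton path with the c ring. Its peak (chr3R:18397090-18397320) was called at 231 bp, against a list median of 404 bp, and ranked 130 of 2533 with a signal of 369. The matching region was also below the list median (420 bp) in replicate 2. It had the median width in replicates 3 and 4 (400 and 344 bp). In replicates 2, 3 and 4 the matching region ranked 106, 310 and 120, with signals of 178, 74 and 120, and the summits lay within 16 bp of the pooled summit. It was thus strong in every replicate. The summit lay 312 bp upstream of a Vha100-2 TSS, and within a longer transcript it fell in an intron of the gene. It also lay in the 5′ UTR of Vti1b, which encodes a SNARE protein of vesicle fusion and starts on the other strand. The TSSs of Vha100-2 and Vti1b are 67 bp apart, and that of Vti1b was nearer to the summit, at 245 bp.

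The other a subunit genes had no optimal summit within 1 kb. Vha100-4, the tandem neighbour of Vha100-2, had regions at rank 5632 in replicate 3 and 28501 in replicate 4. Vha100-1, known for its role at synapses, had regions at rank 15144 in replicate 2 and 16580 in replicate 3. Vha100-3 had a region in replicate 3 alone, at rank 27240, and Vha100-5 had regions at rank 22693 in the pooled list, 21464 in replicate 2 and 22681 in replicate 3. None of these 4 genes had a region among the 2533 strongest of any replicate, while Vha100-2 was among the strongest 500 in all 3.

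Of the 5 genes for the c subunit, which builds the proteolipid ring, Vha16-1 and Vha16-5 had an optimal summit. The Vha16-1 peak (chr2R:6632175-6632578) had its summit 7 bp downstream of a TSS, in the 5′ UTR, and ranked 2030 with a signal of 99.3. Its support was uneven. Replicate 2 had a region at rank 909 with a signal of 72.2, while no region of replicate 3 or 4 had a summit within 200 bp. A separate pooled region, at rank 2742 with a signal of 84.8, lay 199 bp upstream of the other Vha16-1 TSS. It matched regions at rank 5200 in replicate 2 and rank 2836 in replicate 3. Replicate 4 had no region within 1 kb of either TSS. A stronger optimal peak lay inside the same gene, in an intron 4057 bp downstream of a TSS (chr2R:6628125-6628528, rank 811, signal 161). It ranked 273 in replicate 2 and 2678 in replicate 3, and replicate 4 had no region within 200 bp of it.

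The Vha16-5 peak (chr2L:10737084-10737487) ranked 2209 with a signal of 95.2 and rested mainly on replicate 4. Matching regions ranked 6525, 3753 and 888 in replicates 2, 3 and 4, with signals of 26, 27.4 and 43.5. The summit lay between 2 divergent genes, 243 bp upstream of Vha16-5 and 59 bp upstream of CG12299. The remaining c subunit genes were weak or empty. Vha16-3 had pooled rank 21872 and rank 6101 in replicate 4, Vha16-4 had rank 16334 in replicate 4 alone, and Vha16-2, which lies close to Vha16-3, had no region in any list.

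Vha55, the gene for the B subunit of the ATP-splitting ring, had a peak at rank 2369 with a signal of 91.8 (chr3R:12627669-12628072). Matching regions ranked 3794, 2724 and 1866 in replicates 2, 3 and 4, with signals of 35.9, 31.4 and 27.5. It was found in all 3 replicates at moderate rank, and only in replicate 4 was it among the 2533 strongest. The summit was 42 bp upstream of Vha55 and 160 bp upstream of Snx3, which encodes a sorting nexin of endosomal recycling and runs the other way. A weaker pooled region in an intron of Vha55, 616 bp downstream of another of its 3 TSSs, ranked 3676 and had counterparts in all 3 replicates.

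Vha36-1 encodes a D subunit, part of the central axle. Its peak (chr2R:15541158-15541561) ranked 2287 with a signal of 93.3. It was the most even of the weaker peaks. Matching regions ranked 2837, 2306 and 2368 in replicates 2, 3 and 4, with signals of 41.7, 33.6 and 23.7. The summit was 75 bp upstream of Vha36-1 and 3 bp inside CG8187, in its 5′ UTR, and the TSSs of the divergent pair are 72 bp apart. The copies Vha36-2 and Vha36-3 had a region in 1 list each, at rank 27571 in replicate 4 and at rank 15819 in the pooled list.

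The peak assigned to Vha14-1, for the F subunit of the axle, lay away from its promoter. It ranked 425 with a signal of 220 (chr2R:15679005-15679408), and 933, 228 and 468 in replicates 2, 3 and 4, with signals of 71.6, 84.3 and 63. The site was strong in every replicate, and the summits lay within 36 bp of the pooled summit. The summit was 877 bp downstream of the Vha14-1 TSS, and the gene is 659 bp long, so the site is past its 3′ end. It was 251 bp upstream of Gmppa, which is transcribed from the same strand. At the promoter of Vha14-1 itself, replicate 3 had a region 3 bp from the TSS at rank 8329. The copy Vha14-2 had pooled rank 23924, rank 20097 in replicate 2 and rank 5066 in replicate 4.

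**Figure D3:**
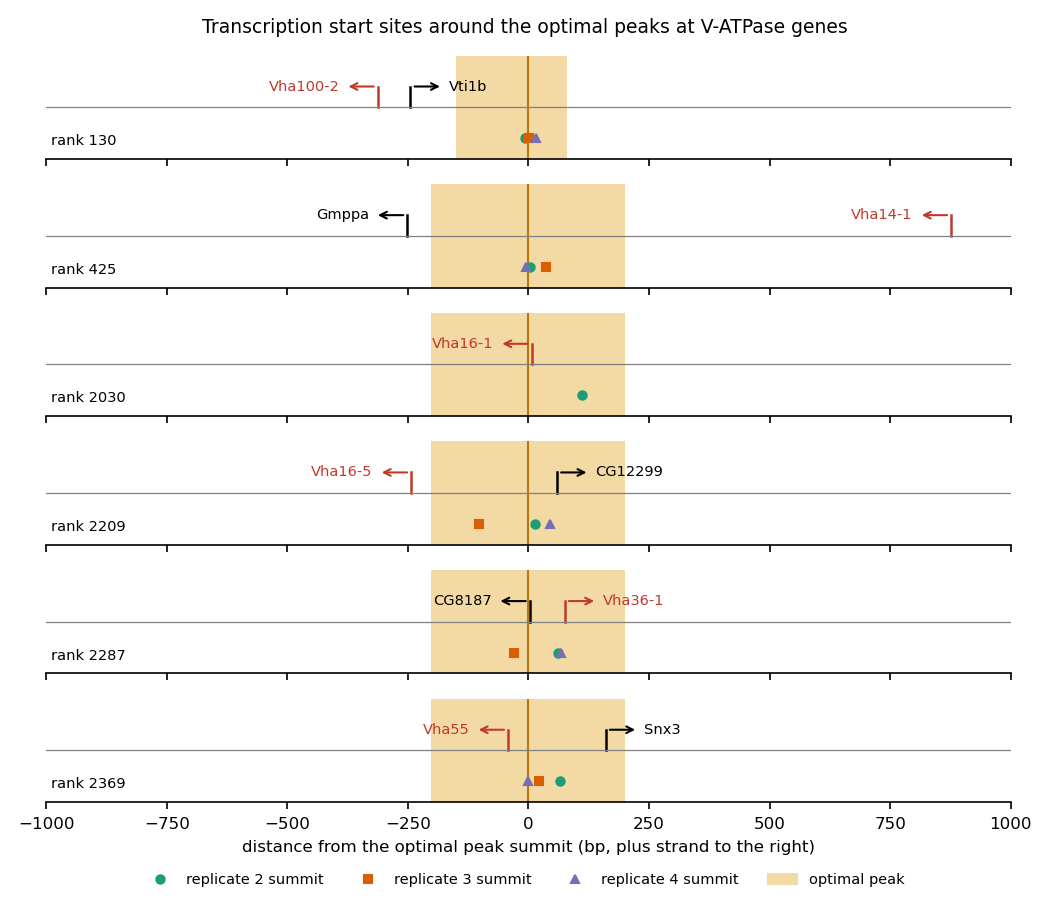
Nearest TSS of each coding gene within 1 kb of the 6 optimal peaks at proton pump genes. Further TSSs of the same gene are not drawn. Arrows show the direction of transcription (V-ATPase genes in red, other genes in black). Distance from the pooled summit in bp is on the x axis, with the peak shaded and matching replicate summits as symbols. Vha16-1 alone has no TSS of another coding gene within 1 kb, and Vha14-1 starts 877 bp from its peak.

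Most of these 6 peaks also lay near another gene. In 5 of the 6, a second protein-coding gene had a TSS within 1 kb of the summit, Vha16-1 being the exception. The same count was not made over all optimal peaks, so it describes these 6 only and is not a result about the pump. When a summit counted only for the coding gene with the nearest TSS, Vha16-1 and Vha55 remained, which is 6.06% of the members against 9.58% of all protein-coding genes. A coding TSS on the other strand within 1 kb upstream (a head-to-head neighbour) was present at 14 of the 33 genes (42.4%), against 36.2% of all protein-coding genes. Of these 14, 5 had an optimal summit (35.7%), against 24.1% of all genes with such a neighbour. Of the other 19, 1 had an optimal summit (5.26%), against 7.64% of all genes without one. For Vha14-1 the peak was not on the side of its head-to-head neighbour CG30091.

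Replicate support split the members further. Vha100-2 and Vha14-1 had a summit among the 2533 strongest regions of all 3 replicates (6.06% of members, against 5.61% of all protein-coding genes). Vha36-1 had it in 2 replicates, 9 genes in 1 replicate and 21 in none. No gene outside the optimal list was among the strongest regions of 2 or 3 replicates. There were 6 genes that were strong in 1 replicate and absent from the optimal list. Beyond the count for all 3 replicates, these counts were not made over all protein-coding genes and describe the members only. Vha13, the stator subunit G, ranked 1015 in replicate 4 with a signal of 40.2, against 17468 in replicate 2 and 8842 in replicate 3, where the regions lay elsewhere (756 and 401 bp upstream of the TSS). Vha68-1, a gene for catalytic subunit A, ranked 1788 in replicate 4 and 8632 in replicate 2, with no region in replicate 3. VhaM9.7-c, an e subunit gene, ranked 1364 in replicate 3, 13597 in replicate 2 and 3590 in replicate 4. VhaSFD, the regulatory subunit H, ranked 2356 in replicate 3 and 9326 in replicate 2, with no region in replicate 4. Vha44, subunit C, ranked 2213 in replicate 2, 13803 in replicate 3 and 5183 in replicate 4. VhaAC45, an accessory protein of the pump, ranked 2475 in replicate 2 and 15543 in replicate 3, with no region in replicate 4.

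Just below the authors' threshold, the first genes of the pooled list without an optimal summit were Vha44 (rank 3251, signal 77.2) and VhaM9.7-c (rank 3292, signal 76.6). The Vha44 summit was 10 bp upstream of a Vha44 TSS and 113 bp upstream of that of Hmgs, an enzyme gene of the mevalonate pathway. Vha26, stator subunit E, followed at rank 5495, with ranks 6060 and 11555 in replicates 2 and 3 and no region in replicate 4. Vha68-2, a further A subunit gene, had its best pooled region at rank 6002, and the region 100 bp upstream of a TSS at rank 6138 had counterparts at 7786, 7330 and 14217 in replicates 2, 3 and 4. VhaM9.7-b (rank 6305) and VhaM9.7-a (rank 9556) were the next. Around the 1 kb limit, Vha14-1 lay just inside at 877 bp. Vha13 lay just outside, with an optimal peak of rank 2089 in its 3′ UTR, 1234 bp downstream of its TSS and 430 bp from a TSS of subdued. VhaM9.7-a and Vha16-4 were the next beyond, 3369 and 3651 bp from the nearest optimal summit.

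With all regions counted, including those of background strength, most members had some region. It was 20 of 33 in the pooled list (60.6%, against 54.8% of all protein-coding genes). In replicates 2, 3 and 4 it was 21, 21 and 17 members (63.6%, 63.6% and 51.5%, against 59.1%, 59.1% and 46.5%). In the full lists of all 3 replicates 9 members had a summit, 27.3% against 27.7% of all protein-coding genes. These shares are near the background and are not a result about the pump. Vha16-2, VhaAC39-2, a d subunit gene, and VhaAC45RP had no region in any list. VhaPPA1-1 and VhaPPA1-2, the c″ genes, had none in the pooled list and ranks of 10524 and 27212 in replicate 3, and VhaPPA1-1 also had rank 23837 in replicate 2. VhaAC39-1 had pooled rank 24381 and rank 24356 in replicate 2, Vha68-3 had pooled rank 20758 and rank 8582 in replicate 4, and VhaM9.7-d had rank 14685 in replicate 4 alone.

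**Figure D4:**
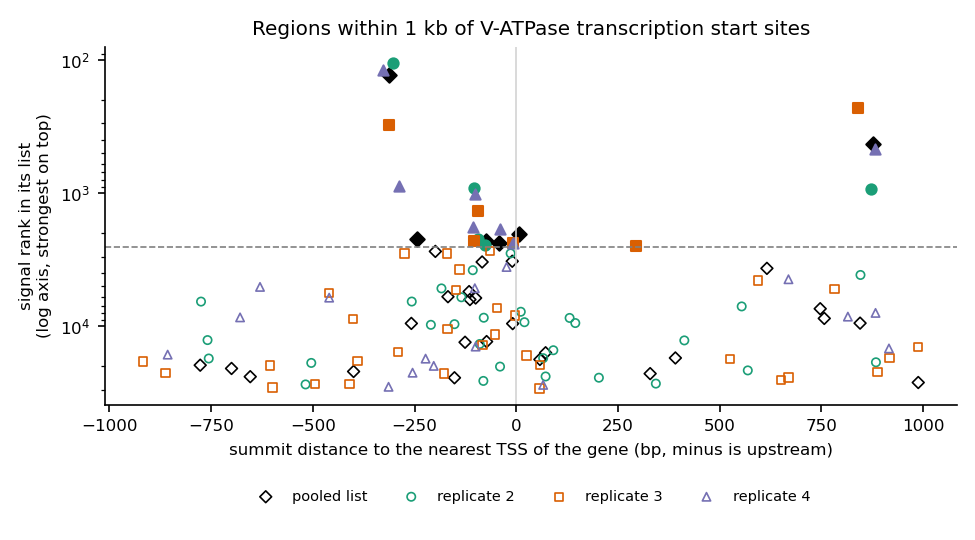
Signed distance from summit to the nearest TSS of the gene (x axis, bp, minus is upstream) against signal rank (log axis, strongest on top) for every region within 1 kb of a proton pump gene, in the pooled list and the 3 replicates; filled symbols are at rank 2533 or better, above the dashed line. The strongest groups are at Vha100-2, near 312 bp upstream, and at Vha14-1, near 877 bp downstream.

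By sector, 3 of 13 V1 genes, 3 of 18 Vo genes and 0 of 2 accessory genes had an optimal summit, against 13.6% of all protein-coding genes. In the strongest regions of replicates 2, 3 and 4 it was 2, 3 and 5 V1 genes and 2, 2 and 2 Vo genes, against 11.4%, 16.1% and 12.6% of all protein-coding genes. Of the subunits with a single gene (B, C, E, G and H) 1 of 5 had an optimal summit, and of the 26 gene copies of the other subunits 5 had it. In the pooled list with all regions, 4 of these 5 single genes and 15 of the 26 copies had a region, against 54.8% of all protein-coding genes. Every family with several copies that had an optimal summit had it at some copies and not at others. With 13.6% of all protein-coding genes called, few copies of a family would carry a summit in any case. The same count was not made over other gene families, so it is not a result about the pump. Among members with a pooled region, the best one lay within 200 bp of a TSS in 13 of 20 (65.0%), with a median distance of 121 bp, against 49.5% and 203 bp over all protein-coding genes with a pooled region. In the optimal list it was 3 of 6 (50%), against 57.3%.

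Partner genes were read in the same way. Of 15 genes of the F-type ATP synthase, the mitochondrial relative of the pump, 2 had an optimal summit (13.3%), ATPsynE at rank 1631 and ATPsynbeta, a catalytic subunit gene, at rank 2415, but not ATPsynB or ATPsynC. None of 4 assembly factors and regulators had it: Rbcn-3A and Rbcn-3B, which help assemble the pump, Mitf, the fly homologue of the TFEB family that activates V-ATPase genes, and the accessory gene ATP6AP2. Mitf and Rbcn-3A were each among the strongest regions of 1 replicate. Of 22 lysosomal genes 3 had it (13.6%): Hexo2, a hexosaminidase gene (rank 211), Sap-r, the saposin precursor (rank 531), and CtsF (rank 1479), but not Lamp1 or CtsL1. Of 14 genes of lysosomal amino acid sensing by TOR 4 had it (28.6%), namely Sesn (rank 80), Lamtor3 (rank 151), Wdr24 (rank 726) and RagA-B (rank 2388), but not RagC-D or Lamtor1. Sesn, Lamtor3 and Wdr24 were among the strongest regions in all 3 replicates, and so were ATPsynE, Hexo2 and Sap-r. CtsF was among them in 2 replicates, ATPsynbeta in 1 and RagA-B in none. The counts for all 3 replicates were 1 of 15 ATP synthase genes and 0 of 4 assembly factors and regulators. They were 2 of 22 lysosomal and 3 of 14 amino acid sensing genes, against 5.61% of all protein-coding genes. Some partner summits lay far from the TSS, at 914 bp for Sap-r, 788 bp for ATPsynE, 769 bp for CtsF and 560 bp for RagA-B. The other named partner summits lay within 262 bp. The lysosomal share was 9.09% with 500 bp and 18.2% with 2000 bp, against 11.6% and 16.6% of all protein-coding genes. In the strongest regions of the replicates, the mean shares were 13.3% ± 6.67 for ATP synthase genes and 16.7% ± 14.4 for assembly factors and regulators. They were 21.2% ± 9.46 for lysosomal and 23.8% ± 4.12 for amino acid sensing genes, against 13.4% ± 2.43 of all protein-coding genes (SD, n = 3). All genes together stood at the 13.6% given above for 1 kb, and no test was made between these lists.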

How the data were processed

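The authors deposited peak lists in narrowPeak form. Per the deposited file lists, each replicate list was made from that replicate's alignments and a control alignment, the pooled list from all 3, and the optimal list by an irreproducible discovery rate threshold. The deposited signal value (column 7) is on a scale not given in the sources used here, as are the aligner and the peak caller. Read depth is unknown. The only interval printed is the counting interval of the share with an optimal summit (exact, 95%), and replicate means carry an SD. The 5 dm6 lists were used. The 5 dm3 lists and the control library were not analysed here.

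Summits were taken as column 2 plus column 10 plus 1. TSSs came from Ensembl release 115 (BDGP 6.54), transposable elements and pseudogenes left out, and bases from the RefSeq genome of that assembly, whose chromosomes held every region to its end. A region matched another list when summits were within 200 bp, and the strongest match by rank was given. Ranks follow the signal within a list. The assignment of summits to genes was checked on planted summits. Python 3.11.15 and pandas 2.3.3 were used.

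The 33 genes, the partner lists and the words were chosen with earlier results of these data known. The text names every member with an optimal summit, those strong in a replicate, those just outside 1 kb, the others by count or name, and up to 4 partner genes of a list with a summit and up to 2 without. Mitf and ATP6AP2 were named besides, after their values were seen. No test was run, since there is 1 group.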

Additional observations from a re-analysis of the deposited data

How the results depend on the processing

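Of 44 alternative values for 15 results, 21 stayed within the spread set for that result and 23 moved further. The spread was the SD of the same share over the 3 replicates, the SD of ranks over the genes, a factor of 1.5 for a count, or the exact 95% interval for a word. The share of members with an optimal summit (18.2%) became 12.1% with 250 bp (9.46% of all coding genes), 6.06% with the upper 50% of peaks (7.27%), 6.06% with the nearest coding TSS only (9.58%), and 6.06% with peaks found in all 3 replicates (5.24%). It ranged from 6.06% to 9.09% without 1 replicate, being 9.09% without replicate 2 and 6.06% without replicate 3 or 4, against 7.39%, 5.99% and 6.87% of all coding genes, since such peaks must be found in both other replicates. The replicate mean (17.2%) became 10.1% with 250 bp (9.15% of all coding genes), 9.09% with 50% as many regions (7.31%) and 59.6% with all regions (54.9%). It was 15.2% to 18.2% without 1 replicate, against 12.0% to 14.3%. The pooled share (60.6%) became 42.4% with 250 bp (39.0% of all coding genes), 51.5% with 500 bp (47.7%), 75.8% with 2000 bp (63.7%) and 42.4% with the upper 50% of regions (42.1%). The 2 genes found in all replicates became 0 with 250 bp, 1 with 500 bp and 9 with all regions (27.3%, against 27.7% of all coding genes). The counts with 250 and 500 bp were not made over all coding genes. Amino acid sensing genes (28.6%) gave 21.4% with 500 bp (11.6% of all coding genes) and 35.7% with 2000 bp (16.6%). ATP synthase genes (13.3%) gave 6.67% with 500 bp (11.6% of all coding genes), a move equal to their SD of 6.67. Words were also counted within 100 bp of 20 best pooled summits, in place of 33 promoters. There TATCGATA was in 0% (2.23% of all pooled summits), GGTCACAC in 0% (1.37%), CTATTT in 5% (17.7%) and AAACTA in 10% (18.3%). The remaining words went the other way, with GTAAACA in 10% (5.72%) and TCACGTGA in 5% (0.146%). Each of these shares stands for 0, 1 or 2 of the 20 summits. The causes of the other moves were not tested. No paired analysis between conditions was possible because there was 1 group. The shares of members and of all coding genes were set side by side within each replicate, without a test. Unknown depth limits what an absent region can mean.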

Other observations

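The word TCACGTGA was in the 300 bp promoter of a single member, Vha44 (3.03% of members), and in 24 of 13968 promoters (0.172%). It also lay within 100 bp of the best pooled summit of Vha44, at rank 3251. Among all nuclear optimal summits 4 of 2510 held it (0.159%).

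Vha68-1 and mTor, the gene of the TOR kinase, start head to head with 373 bp between their TSSs. The region between them ranked 1788 in replicate 4, with a summit 106 bp upstream of Vha68-1, and had no counterpart within 200 bp in the pooled list. Replicate 2 had a region there at rank 8632, 80 bp upstream of Vha68-1, and replicate 3 had none. Further head-to-head neighbours of members without an optimal summit were noi at Vha26 (304 bp apart), COX8 at VhaM9.7-b (415 bp), Gnptab at VhaAC45 (437 bp), dgt6 at Vha100-1 (221 bp), Nup58 at Vha13 (640 bp), AANATL7 at Vha36-3 (398 bp), CG11586 at VhaM9.7-a (235 bp) and Hmgs at Vha44 (123 bp).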
